A study of Mus musculus with 4 samples.

Results

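The hepatokine genes described here encode hormones and binding proteins that the liver secretes into blood: Enho, Fgf21, Igf1, Igfals, Igfbp1, Igfbp2, Angptl4, Lect2 and Fetub. They were taken at every probe set that the annotation of the Affymetrix Mouse Genome 430 2.0 array assigns to that symbol alone, which gave 16 probe sets for the 9 genes, of 34945 such probe sets for 18193 genes on the array. Igf1 and Enho have 4 probe sets each, Angptl4 has 2, and 6 genes have 1. Of the 16, 14 probe sets passed the detection filter used for testing (called Present on at least 2 of the 4 arrays), 10 were Present on all 4 arrays, and 2, the Fgf21 probe set and Enho 1454585_at, were not tested.

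Non-tumorous liver of 2 G9aKO samples (Alb-Cre; G9aflox/flox) was compared with that of 2 WT samples (Alb-Cre; G9a+/+), with 1 array per sample. All 4 came from 30-week-old male mice backcrossed to C57BL/6 that carried the Alb-Cre transgene and had received diethylnitrosamine (DEN), a DNA-damaging hepatocarcinogen, at 25 mg/kg on day 15 of life, followed by 22 weekly injections of the hepatotoxin carbon tetrachloride (CCl4) at 0.5 ml/kg. The albumin promoter drives Cre in hepatocytes, so macrophages, stellate cells and endothelial cells of the G9aKO liver still carry G9a. The liver was therefore carcinogen-treated and chronically injured in both groups, and no untreated liver was analysed here. Values are MAS5 signals, a linear brightness scaled to the same trimmed mean of 500 on every array, and differences are G9aKO over WT on the log2 scale. With 2 samples against 2, an exact permutation test cannot go below a two-sided p of 0.33, so tests rest on limma, which pools the spread over all genes.

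Hepatokines carry information about nutrition and injury from the liver to other organs. Growth hormone acts on hepatocytes through STAT5 to drive IGF1 and IGFALS, which circulate in a ternary complex with an IGF binding protein, whereas IGFBP1 is made when insulin is low. FGF21 is induced in fasting through the nuclear receptor PPAR alpha and in amino acid shortage through the transcription factor ATF4. Adropin, the peptide encoded by Enho, has been linked in mouse liver to diet and to nuclear receptors of the ROR and REV-ERB families.

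The promoters of 3 members held a sequence element of the pathway each is known for, and these stretches are shown so that the elements can be read beside the values that follow. Sequences are from RefSeq (GRCm38.p6), 5′ to 3′ on the strand of the gene, 100 bases each, and capitals mark the element. RefSeq promoters, from 250 bases before to 50 bases after a transcript start, were matched for 7 of the 9 genes in 11 windows. Enho and Angptl4 had no match. The windows were searched on both strands.
Fgf21, C/EBP-ATF core TGATGNAA on the opposite strand, chr7:45615576-45615675, minus strand: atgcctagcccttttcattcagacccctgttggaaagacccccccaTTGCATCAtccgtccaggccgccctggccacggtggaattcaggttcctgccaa
Igfbp1, insulin response core CAAAACA, chr11:7197633-7197732, plus strand: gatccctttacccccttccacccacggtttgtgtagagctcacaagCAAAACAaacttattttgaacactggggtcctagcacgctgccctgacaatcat
Igfals, STAT5 element TTCNNNGAA, first transcript start, chr17:24877594-24877693, plus strand: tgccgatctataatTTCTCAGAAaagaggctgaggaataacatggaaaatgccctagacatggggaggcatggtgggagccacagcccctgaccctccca
Igfals, STAT5 element, second transcript start, chr17:24878127-24878226, plus strand: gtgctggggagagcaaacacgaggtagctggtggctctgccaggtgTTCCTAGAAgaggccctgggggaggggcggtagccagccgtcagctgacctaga

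The C/EBP-ATF core was found in 3.97% of 32851 RefSeq promoters of that length and, among the members, in Fgf21 alone, where it begins 139 bases before the transcript start. The insulin response core was in 6.28% of promoters and in Igfbp1, 108 bases before the start. The STAT5 element was in 8.3% of promoters and in both Igfals windows, 236 and 58 bases before the start. No other matched member held it, Igf1 included. The ROR core TAGGTCA (2.61% of promoters) was found in 1 Igfals window. A PPAR direct repeat of AGGTCA spaced by 1 base (0.0396% of promoters) was found in none, Fgf21 included. These are letter matches in short windows and carry no information on binding.

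The arrays were first checked at the targeted gene. Ehmt2, which encodes G9a, had signals of 174 and 164 in G9aKO livers, Absent on both arrays, against 640 and 492 in WT livers, Present on both, at probe set 1460692_at. The G9aKO level was thus lower on both arrays (at least 3.14-fold lower with Absent signals raised to the 95% quantile of Absent signals on their array, limma adjusted p = 0.063), and it passed with median centring (adjusted p = 0.0408) and quantile normalization (0.0497). The sources used here do not say whether this probe set lies in the deleted part of the gene, and in whole liver, where fewer cells of a type and less RNA per cell cannot be told apart, the remaining G9a transcript of other cells was not separated from background.

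Shares of Present probe sets were close across the arrays, with 42.8 to 43.9% in G9aKO livers and 41.3 to 41.9% in WT livers, and array correlations lay between 0.959 and 0.971. The 3′ over 5′ signal ratio of the beta actin control was 2.54 and 2.03 in G9aKO livers and 2.03 and 2.23 in WT livers. For Gapdh it was 0.76 and 0.74 in G9aKO livers and 0.70 and 0.69 in WT livers. Both ratios were highest on G9aKO replicate 1, and their part in the results was not tested. The control probe sets for 18S ribosomal RNA were brighter on both G9aKO arrays, 1.39 times at the 5′ set and 2.31 times at the 3′ set as a ratio of means, and their part in the results was not tested. Circadian transcripts split the arrays across genotype. Dbp, a clock output gene that lies next to Fgf21, had signals of 615 and 7350 in G9aKO livers and of 423 and 6760 in WT livers. Arntl, the BMAL1 gene, ran the other way with 721 and 229 in G9aKO livers and 543 and 228 in WT livers. Cry1 (634 and 222 in G9aKO, 632 and 240 in WT) and Nr1d2 (4813 and 8059 in G9aKO, 5051 and 7963 in WT) divided the same way, so replicate 1 of each genotype differed from replicate 2. These clock genes were singled out after their values were seen, and the part of this difference in the member values was not tested.

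Of the 8 hepatokine genes tested, 1, Enho, was higher in G9aKO liver at an adjusted p under 0.05 and none was lower. Enho entered the test only through its Present calls in G9aKO livers, the group where it was high. Without the detection filter the gene was not called (limma adjusted p = 0.0547). Over all 10350 genes tested, 33 or 0.319% were called higher and 7 or 0.0676% lower. The members were chosen with earlier results of these data known, so no excess over these shares can be read from the count. At the level of probe sets, 1 of 14 was called higher, beside 0.233% of 17158, and none lower, beside 0.0466%. Without adjustment, limma gave a p under 0.05 for 2 of the 8 genes, both higher (Enho and Lect2), and for 1037 of all genes. Both G9aKO arrays lay above both WT arrays for Enho, Angptl4 and Lect2, 3 of 8 genes beside 22.3% of all genes, and below both for Igf1 and Igfals, 2 of 8 beside 19.3%, shares that are near the background for so few genes. The median log2 fold change of the 8 genes was 0.09, with 5 above 0 and 3 below, and that of all genes was 0.02, with 53.4% above 0. Centring each array on its median moved the median of the members to -0.03 and that of all genes to -0.10.

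**Figure D1:**
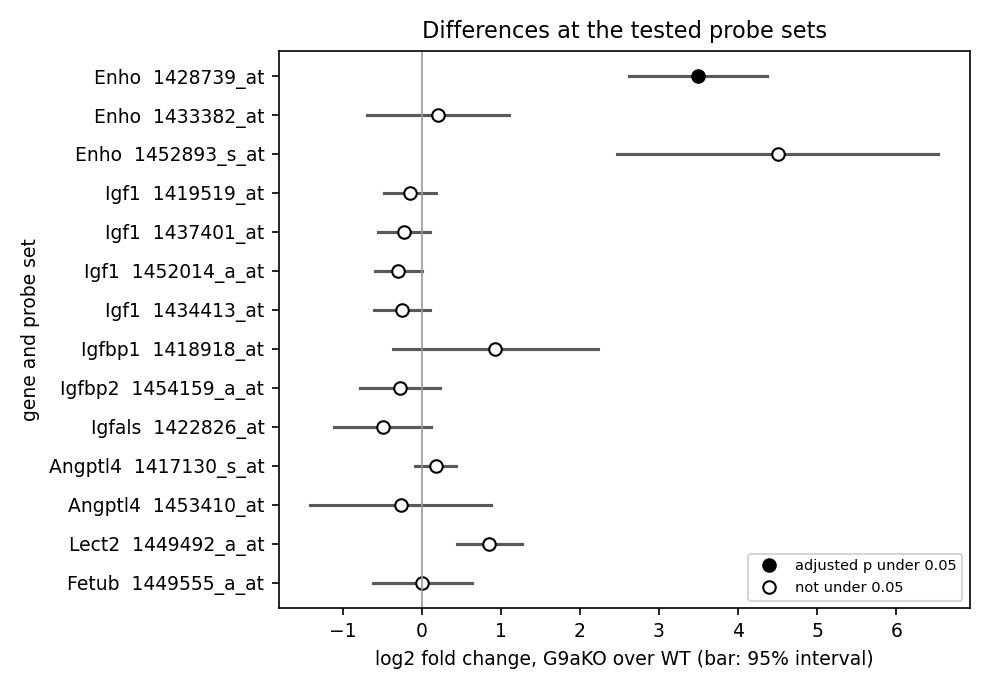
Log2 fold change of G9aKO over WT (horizontal axis) at each of the 14 tested probe sets (vertical axis), from the limma fit over probe sets, with bars for the 95% interval. The Enho probe set 1428739_at is the filled point at 3.49, the Enho probe set 1452893_s_at lies at 4.50 with a wider bar, the Lect2 interval lies above 0, and the 4 Igf1 probe sets lie between -0.30 and -0.15.

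Enho, the adropin gene, was near the array background in WT liver and bright in G9aKO liver. At probe set 1428739_at the signals were 1613 and 1480.1 in G9aKO livers, Present on both arrays, against 203 and 92.6 in WT livers, Absent on both. The groups did not overlap, and the lower G9aKO value was far above the higher WT value. Because both WT arrays were called Absent, only a lower bound of the difference can be given. Absent signals were raised to the 95% quantile of Absent signals on their array (170 to 181), a setting chosen after seeing the data. The Enho ratio of geometric means, G9aKO over WT, was then at least 8.20, a bound that leaves out the spread between mice. The lower G9aKO signal was 7.29 times the higher WT signal. The lowest Present signal of an array is a weaker floor that lay below both WT signals, and with it the ratio of geometric means was the measured one, 11.3, beside 10.5 for the ratio of arithmetic means. The fit, which takes the Absent signals as measured, gave a log2 fold change of 3.49 (SE 0.37, 95% interval 2.58 to 4.40, limma adjusted p = 0.0361).

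The other Enho probe sets divided into a bright and a dim pair. Probe set 1452893_s_at, designed from the same source sequence as 1428739_at and so not independent of it, had signals of 1264 and 1644 in G9aKO livers, Present on both, against 178 and 22.8 in WT livers, Absent on both. It was at least 8.18-fold higher with the same floor, while the measured ratio of geometric means, 22.7, rested on the Absent WT signal of 22.8. The fitted log2 fold change of 4.50 (SE 0.85) did not pass the test (limma adjusted p = 0.155), the WT values being far apart. The dim probe set 1433382_at read 91.9 and 97.0 in G9aKO livers and 81.7 and 82.2 in WT livers, with 3 of 4 arrays Present. Here the groups did not overlap either, but they differed by only 0.20 on the log2 scale (95% interval -0.70 to 1.10, limma adjusted p = 0.901). Probe set 1454585_at was Absent on every array, with 31.5 and 94.6 in G9aKO livers and 27.2 and 21.8 in WT livers, and was not tested. The large difference was therefore measured at 2 probe sets from the same source sequence. At the other 2 every signal was below the 95% quantile of Absent signals, so they carry little information on Enho in either direction.

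**Figure D2:**
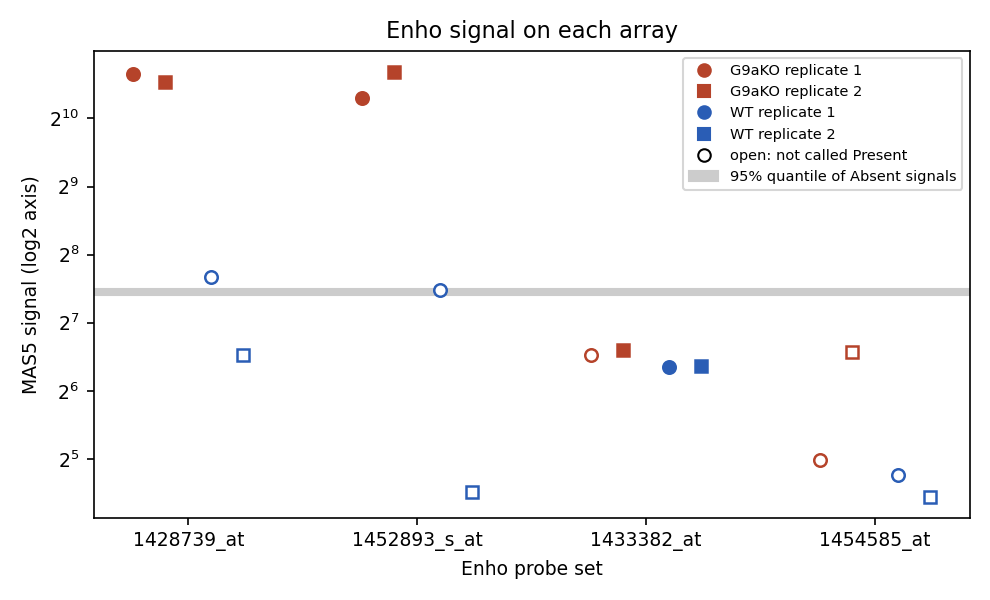
MAS5 signal on a log2 axis (vertical) for the 4 Enho probe sets (horizontal), with G9aKO arrays left of WT arrays, circles for replicate 1, squares for replicate 2, and open symbols for arrays not called Present. At the first 2 probe sets both G9aKO arrays sit between 1264 and 1644 and both WT arrays at or below 203, and at the other 2 all signals lie below the grey band of the 95% quantile of Absent signals.

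The Enho call depended on the settings of the fit. At gene level it was not reached with limma without a mean-variance trend (adjusted p = 0.167), with the methods' t-test (adjusted p = 0.542), without a detection filter (adjusted p = 0.0547), with the mean over the 3 detected Enho probe sets (log2 fold change 2.73, adjusted p = 0.106), or without G9aKO replicate 1 (log2 fold change 3.43, adjusted p = 0.0501), and Enho was not tested where Present calls on all 4 arrays were required. Leaving out any array kept the call at probe set 1428739_at in the probe set fit, with log2 fold changes of 2.93 to 4.06. In such fits the array left alone in its group is assumed to vary like the other group.

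Across the 4 arrays, the genes whose log2 signals, centred on the gene's mean, lay closest to Enho were Asns (Euclidean distance 0.15), which makes asparagine synthetase, Stap1 (0.46), a signalling adaptor, and Spink5 (0.61), a serine protease inhibitor. With 4 arrays and 10350 genes this is a description only, and the order of the WT arrays in it comes from Absent Enho signals. Asns had signals of 5355 and 4441 in G9aKO livers and of 659 and 271 in WT livers, and it rose by 3.53 on the log2 scale (SE 0.40, limma adjusted p = 0.0361). Its call was lost in limma without a mean-variance trend (adjusted p = 0.212) and without a detection filter (0.0552). The methods' t-test (adjusted p = 0.561) and leaving out G9aKO replicate 1 (log2 fold change 3.39) did not reach it either. Stap1 had 1007 and 1281 in G9aKO livers and 160 and 54.6 in WT livers, Absent on both WT arrays, and was at least 6.58-fold higher with the floor used for Enho (limma adjusted p = 0.0718). Spink5 had 174 and 164 in G9aKO livers and 31.6 and 7.97 in WT livers (limma adjusted p = 0.225). Every Spink5 signal was below the 95% quantile of Absent signals on its array, and WT replicate 2 was called Absent.

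Genes beside Enho on chromosome 4 did not share its pattern. The nearest tested genes on each side were Fam219a, with a log2 fold change of -0.28, and Rpp25l, with -0.19, and the 5 tested genes on each side ranged from -0.40 to 0.25 with none called. Of proposed regulators and receptors of adropin, none of the 6 tested passed (limma, none with an unadjusted p under 0.05), and their median log2 fold change was 0.17. Gpr19, an orphan receptor proposed to bind adropin, read 388 and 339 in G9aKO livers and 306 and 253 in WT livers (0.38, limma adjusted p = 0.627). Rora, the nuclear receptor ROR alpha, was at 0.19 and Nr1h3, the oxysterol receptor LXR alpha, at 0.15, and neither passed. Nr1d1, the REV-ERB alpha gene, was Absent on all arrays at the probe set used.

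The insulin-like growth factor genes showed no call. Igf1, the growth factor that liver releases under growth hormone, had signals of 20432 and 17274 in G9aKO livers and 24497 and 21755 in WT livers at probe set 1452014_a_at, both G9aKO values below both WT values. The log2 fold change was -0.30 (SE 0.12, 95% interval -0.60 to 0.01, limma adjusted p = 0.505), so the interval reached 0 and the gene did not pass. In the probe set fit the interval ended at -0.00024, just below 0, and the probe set did not pass either (limma adjusted p = 0.536). Probe set 1419519_at read 5538 and 4584 in G9aKO livers and 5335 and 5849 in WT livers, and 1434413_at read 19705 and 17890 in G9aKO livers and 25519 and 19561 in WT livers. Log2 fold changes at the other 3 Igf1 probe sets, 1437401_at included, were -0.15, -0.23 and -0.25, with overlapping groups, and all 4 kept a value below 0 under median centring and under quantile normalization. The 4 probe sets read the same RNA and are not replicates.

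Igfals, the acid-labile subunit that stabilises circulating IGF1, read 903 and 908 in G9aKO livers and 1658 and 983 in WT livers. Replicate 1 of WT stood apart, and the remaining WT value was only slightly above both G9aKO values. The log2 fold change was -0.50 (SE 0.26, limma adjusted p = 0.582), and it was -0.12 without WT replicate 1. The same WT array had the highest signal of Socs2, a suppressor that growth hormone induces through STAT5, with 1088 and 528 in G9aKO livers and 3354 and 913 in WT livers (log2 fold change -1.21, limma adjusted p = 0.586).

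Igfbp1, which binds IGF1 and is induced when insulin signalling is low, had 1 array far from the others. Its signals were 33797 and 9092 in G9aKO livers and 7915 and 10660 in WT livers, so that G9aKO replicate 1 was above all other arrays and G9aKO replicate 2 lay between the WT values. The log2 fold change was 0.93 (SE 0.57, 95% interval -0.46 to 2.32, limma adjusted p = 0.642). Without G9aKO replicate 1 it was -0.01, and without G9aKO replicate 2 it was 1.88. Each of these values rests on 1 G9aKO array. Pdk4, a fasting-induced inhibitor of pyruvate use chosen after its values were seen, had its high value on the same array, with 3935 and 725 in G9aKO livers and 779 and 492 in WT livers.

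Igfbp2, a binding protein whose liver expression responds to leptin and nutrition, read 11359 and 8623 in G9aKO livers and 9956 and 14530 in WT livers. The groups overlapped, and the log2 fold change was -0.28 (SE 0.22, 95% interval -0.81 to 0.25, limma adjusted p = 0.711). Igfbp3, which lies beside Igfbp1, read 622 and 517 in G9aKO livers and 290 and 653 in WT livers (log2 fold change 0.38, limma adjusted p = 0.779), and Igfbp5, which lies beside Igfbp2, read 243 and 178 in G9aKO livers and 229 and 443 in WT livers (-0.61, limma adjusted p = 0.642). In each of these pairs the groups overlapped.

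In the wider growth hormone and IGF pathway, none of 20 tested genes passed (limma, 1 with an unadjusted p under 0.05). The median log2 fold change was 0.09, with 14 above 0, against 9 above 0 and a median of -0.04 with median centring. Over all 10350 genes, 5528 were above 0 with a median of 0.02, against 3721 and a median of -0.10 with median centring. Socs3, a suppressor induced by cytokines such as interleukin 6, read 1937 and 1008 in G9aKO livers and 743 and 875 in WT livers (0.79, limma adjusted p = 0.491), and Igfbp7 was at 0.40. Ghr, the growth hormone receptor, read 17675 and 18609 in G9aKO livers and 19984 and 17371 in WT livers. Among 12 genes controlled by insulin through FOXO1 or SREBP1, none passed (limma, none with an unadjusted p under 0.05) and the median was 0.04. The 3 with the smallest p were Txnip, an insulin-repressed regulator of glucose uptake, Srebf1, which encodes SREBP1, at -0.57, and Foxo3 at 0.38. Txnip, like Igfbp1, was highest on G9aKO replicate 1, with 5647 and 3199 in G9aKO livers and 1484 and 3357 in WT livers.

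**Figure D3:**
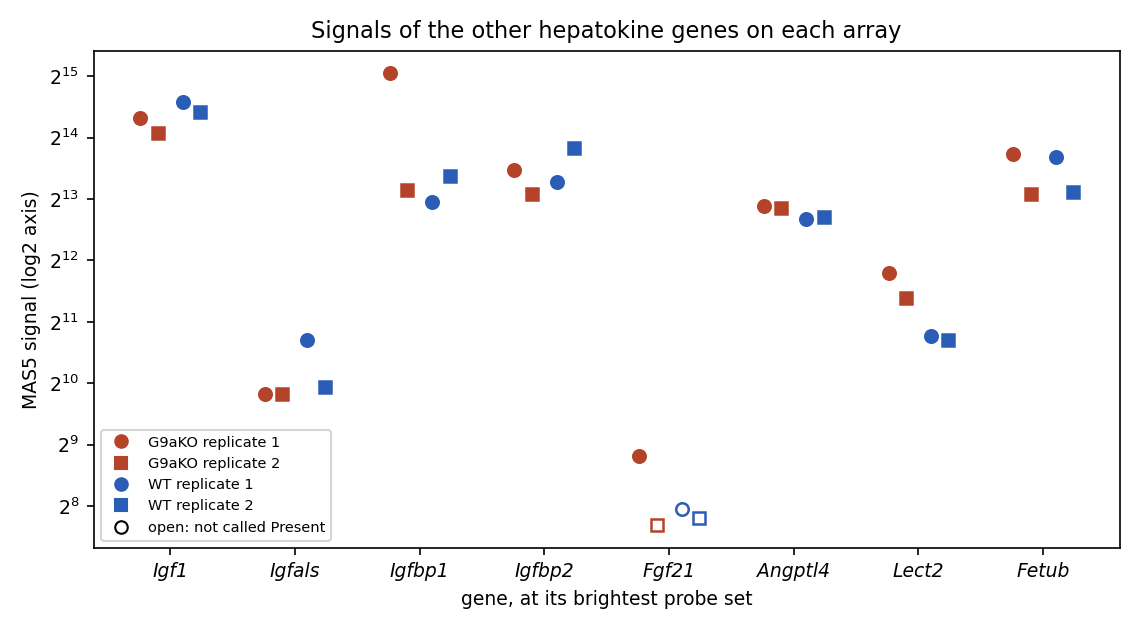
MAS5 signal on a log2 axis (vertical) of the 8 other hepatokine genes (horizontal) at the brightest probe set of each, with G9aKO arrays left of WT arrays and open symbols for arrays not called Present. Igfbp1 and Fgf21 are high on G9aKO replicate 1 alone, Lect2 is above WT on both G9aKO arrays, and the Fetub values divide by replicate number and not by genotype.

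Fgf21, the fasting and stress hormone, was detected on 1 array. Its signals were 449 and 206 in G9aKO livers and 248 and 223 in WT livers, and only G9aKO replicate 1 was called Present. The gene was therefore not tested. The log2 difference of 0.37 rested on that array, and was -0.19 without it. Among the receptors and early targets of FGF21 signalling, none of 9 tested genes passed (limma, 3 with an unadjusted p under 0.05), and the median log2 fold change was 0.39. Egr1, an immediate early gene, read 3170 and 1345 in G9aKO livers and 384 and 456 in WT livers (2.30, limma adjusted p = 0.117). Its log2 fold changes were 1.69 to 2.92 when 1 array was left out. Fgfr3, a receptor for fibroblast growth factors, read 1357 and 1806 in G9aKO livers and 785 and 789 in WT livers (0.99, limma adjusted p = 0.147). Klb, the beta-Klotho co-receptor that FGF21 requires, lay lower on both G9aKO arrays, with 1056 and 1278 in G9aKO livers and 1652 and 1599 in WT livers, but did not pass (-0.48, limma adjusted p = 0.397).

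Genes of the pathways that induce Fgf21 were described as lists. In the ATF4 response, 1 of 19 tested genes rose, Asns (above), and the median of the list was 0.01. Atf4 itself read 3143 and 2257 in G9aKO livers and 3402 and 3012 in WT livers, and Ddit3, the CHOP gene, 631 and 470 in G9aKO livers and 508 and 463 in WT livers. Among PPAR alpha targets, none of 22 tested genes passed (limma, 4 with an unadjusted p under 0.05). Their log2 fold changes were above 0 for 20 of 22, with a median of 0.17, beside 5528 of all 10350 genes, with a median of 0.02. Under median centring 16 of 22 were above 0, with a median of 0.04, beside 3721 of 10350, with a median of -0.10. With quantile normalization 19 of 22 were above 0, beside 5126 of 10350. Cyp4a31, a fatty acid hydroxylase, read 8099 and 9790 in G9aKO livers and 1219 and 2896 in WT livers (2.24, limma adjusted p = 0.12), and the acyl-CoA thioesterases Acot2 and Acot1 were at 1.11 and 0.59, with adjusted p of 0.14 and 0.23.

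Angptl4, an inhibitor of lipoprotein lipase that PPAR alpha induces, read 7528 and 7385 in G9aKO livers and 6545 and 6654 in WT livers at probe set 1417130_s_at. The replicates were close and the groups did not overlap, but the difference was small, 0.18 on the log2 scale (SE 0.10, 95% interval -0.07 to 0.43, limma adjusted p = 0.63), and 0.05 with median centring. The dim probe set 1453410_at read 81.4 and 49.0 in G9aKO livers and 74.2 and 77.5 in WT livers (-0.26, limma adjusted p = 0.899). Angptl4 lies on chromosome 17 with Ehmt2, separated by 38 tested genes, none of them called, and Igfals by 149 tested genes, none called. Among 12 tested genes that handle lipoprotein lipase, none passed (limma, 1 with an unadjusted p under 0.05) and the median was -0.08. Cd36, a fatty acid transporter, read 1810 and 1751 in G9aKO livers and 2422 and 3290 in WT livers (-0.67, limma adjusted p = 0.30), while Gpihbp1, the endothelial anchor of the lipase, and Apoc2, its cofactor, were at -0.19 and -0.18.

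Lect2, a leukocyte chemotactic factor and a known target of beta-catenin in mouse liver, was higher on both G9aKO arrays. The signals were 3556 and 2670 in G9aKO livers and 1748 and 1658 in WT livers, a geometric mean ratio of 1.81. The log2 fold change was 0.86 (SE 0.17, 95% interval 0.44 to 1.27), and the gene did not pass after adjustment over all genes (limma adjusted p = 0.173). With the methods' t-test the adjusted p was 0.602, and log2 fold changes were 0.65 to 1.06 when 1 array was left out. Other Wnt and pericentral genes did not pass, 0 of 13 tested (limma, 2 with an unadjusted p under 0.05). Their median was 0.05, beside 0.02 for all genes, or -0.08 with median centring, beside -0.10 for all genes. Glul, the pericentral glutamine synthetase, read 25992 and 24500 in G9aKO livers and 16062 and 20640 in WT livers (0.47, limma adjusted p = 0.357). Met, the receptor for hepatocyte growth factor, was at -0.53 (1576 and 1948 in G9aKO, 2734 and 2342 in WT), and Lgr5, the R-spondin receptor, at 0.41, neither past the test. Of 9 periportal genes, 1, Etnppl, was called lower: it read 5075 and 6098 in G9aKO livers and 12051 and 11757 in WT livers (-1.10, SE 0.13, limma adjusted p = 0.0374). The median of the list was -0.03, with 6 genes below 0 and 3 above, and 0.02 with quantile normalization. Limma gave 3 of them an unadjusted p under 0.05, all lower: Etnppl, Hal at -0.57 and Cps1 at -0.23. Etnppl breaks down phosphoethanolamine, and its call was lost when either WT array or G9aKO replicate 1 was left out. Log2 fold changes with 1 array left out were -1.23 to -0.97. In limma the call was also lost without a mean-variance trend (adjusted p = 0.274), without a detection filter (0.0557) and with the mean of detected probe sets (0.203). The methods' t-test did not reach it (adjusted p = 0.53).

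Fetub, the protease inhibitor fetuin B, divided the arrays by replicate number. It read 13587 and 8613 in G9aKO livers and 13197 and 8830 in WT livers, so that replicate 1 exceeded replicate 2 in both genotypes, as for Arntl and opposite to Dbp. The log2 fold change between genotypes was 0.00 (95% interval -0.66 to 0.66, limma adjusted p = 0.997), and it turned to -0.12 with median centring. Its neighbours on chromosome 16, Ahsg, which encodes fetuin A, and Hrg, histidine-rich glycoprotein, had smaller spreads, with 51615 and 43013 in G9aKO livers and 51760 and 49352 in WT livers for Ahsg, and 26113 and 20400 in G9aKO livers and 24831 and 22197 in WT livers for Hrg. Over all 9 members, none of 90 neighbouring genes was called (limma, 4 with an unadjusted p under 0.05).

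**Figure D4:**
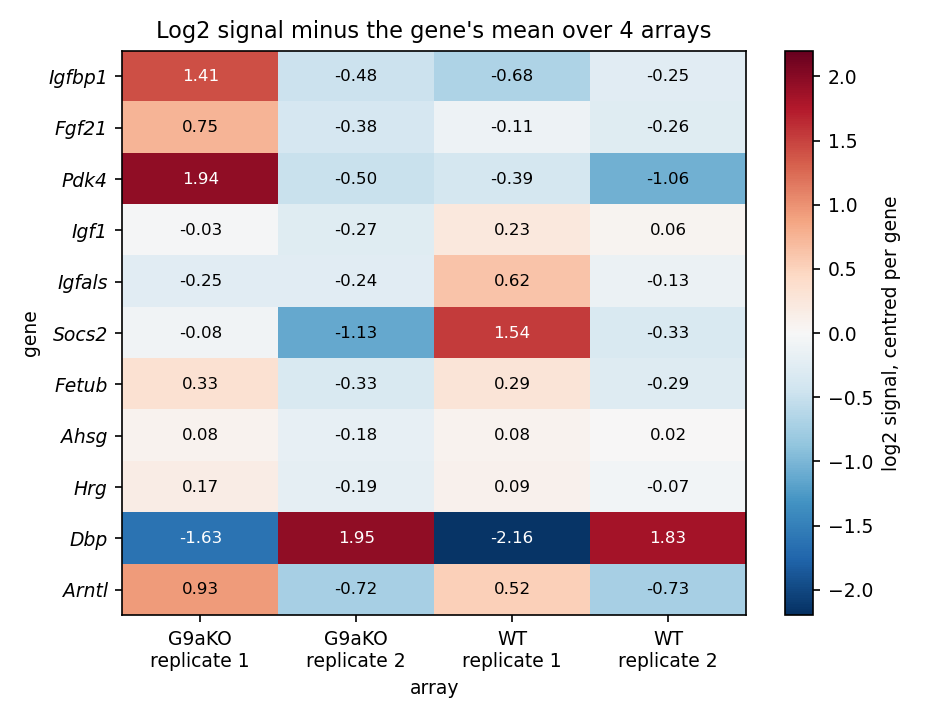
Log2 signal minus the gene's mean over the 4 arrays (colour and printed value) for 5 hepatokine genes and 6 comparison genes (rows) on each array (columns, G9aKO left). Igfbp1, Fgf21 and Pdk4 are highest on G9aKO replicate 1 (1.41, 0.75 and 1.94), Igfals and Socs2 on WT replicate 1 (0.62 and 1.54), and Fetub and Arntl are above 0 on replicate 1 of both genotypes, where Dbp is below 0.

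Other secreted liver proteins were compared as a group. None of 22 tested genes passed (limma, 2 with an unadjusted p under 0.05), and the median log2 fold change was 0.05. Serpina12, the adipokine vaspin, which mouse liver also expresses, read 4406 and 3880 in G9aKO livers and 1886 and 1111 in WT livers (1.51, limma adjusted p = 0.117). Hgfac, the activator of hepatocyte growth factor, read 4879 and 4267 in G9aKO livers and 3209 and 2471 in WT livers (0.70, limma adjusted p = 0.244), and Fst, the activin antagonist follistatin, read 467 and 178 in G9aKO livers and 119 and 156 in WT livers (1.08, limma adjusted p = 0.534).

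Marker genes of liver cell types were compared to check the tissue. All 13 tested hepatocyte markers were Present on all 4 arrays, with a median log2 fold change of -0.10 and summed signals of 568740 and 501370 in G9aKO livers and 581060 and 549790 in WT livers. All 12 macrophage markers had a log2 fold change above 0 under the 3 scalings run, with a median of 0.44 and none called, and their summed signals were 75628 and 48436 in G9aKO livers and 35134 and 51525 in WT livers. The 3 with the smallest p were Lyz2, Csf1r and Vsig4, at 0.88, 0.60 and 0.46. All 9 tested stellate and fibroblast markers were above 0, again with none called, with sums of 22439 and 14070 in G9aKO livers and 11926 and 16741 in WT livers, led by Acta2 at 1.10, Col1a2 at 0.80 and Col3a1 at 1.13. Des, the desmin gene, was Absent on all arrays. G9aKO replicate 1, the array on which Igfbp1 and Fgf21 were high, had the highest sums of both lists.

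Summed signals of bile duct and of oncofetal genes were higher on both G9aKO arrays than on both WT arrays, as Enho was. The cholangiocyte list summed to 1310 and 920 in G9aKO livers and to 484 and 547 in WT livers, with 2 genes tested and none called (limma, 1 with an unadjusted p under 0.05). Pkhd1, which encodes fibrocystin, read 478 and 286 in G9aKO livers and 74.8 and 120 in WT livers (log2 fold change 1.96, limma adjusted p = 0.163), and Sox9, a bile duct transcription factor, read 260 and 149 in G9aKO livers and 173 and 83.9 in WT livers. The defining markers Krt19, Krt7, Epcam and Cftr were each Present on 1 array, of G9aKO liver. The oncofetal list summed to 12613 and 4756 in G9aKO livers and to 2132 and 1110 in WT livers, with none of 5 tested genes called (limma, 2 with an unadjusted p under 0.05). Tff3 and Afp made up most of the G9aKO sums, and the list did not rise as a whole. Its median log2 fold change was 0.03, with 3 genes above 0 and 2 below, and -0.09 with median centring, beside -0.10 for all genes. Tff3, a secreted trefoil peptide of the oncofetal list, read 8424 and 3083 in G9aKO livers, Present on both, against 476 and 217 in WT livers, Absent on both, a measured ratio of geometric means of 15.9 (limma adjusted p = 0.0718). Afp, the oncofetal alpha-fetoprotein, read 3058 and 1159 in G9aKO livers and 252 and 116 in WT livers (log2 fold change 3.46, limma adjusted p = 0.0957). Of the adipocyte markers, Adipoq, Cidea, Retn, Lep and Lipe were Present on no array. The 2 tested, Plin4 and Fabp4, were Present on all 4 arrays and lower on both G9aKO arrays, at -0.55 and -0.38. Neither was called. Among 7 tested endothelial markers none was called, and the median log2 fold change was -0.05, with 3 above 0 and 4 below. Lyve1, the endothelial marker with the smallest p, read 759 and 550 in G9aKO livers and 1025 and 1639 in WT livers (limma adjusted p = 0.32). The part of these differences in the member values was not tested.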

How the data were processed

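RNA of 4 livers was hybridised to 4 Affymetrix Mouse Genome 430 2.0 arrays. The authors deposited a MAS5 signal per probe set, a linear intensity scaled to a trimmed mean of 500, with a detection call and detection p-value. The value table deposited for the series holds the same signals. The sources name no version of MAS5.

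Signals were log2 transformed without a pseudocount. Probe sets were named from the platform annotation of GEO, and those that name more than 1 gene were left out. Probe sets Present on at least 2 arrays were kept (17158) and fitted, and each of 10350 genes was tested at its brightest kept probe set (by mean log2 signal). G9aKO was compared with WT by limma 3.58.1 in R 4.3.3, with a mean-variance trend and Benjamini-Hochberg adjustment over all tested, at a threshold of 0.05. Values shown are the gene fit unless a probe set is named as such.

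A call of Absent on both arrays of a group gives a bound only. The bounds called "at least" raise Absent signals to the 95% quantile of Absent signals on their array, chosen after seeing the data. These bounds are ratios of geometric means and leave out the spread between mice. The lowest Present signal was the floor set earlier, and it changed no signal of the probe sets concerned. Samples carry no replicate number in the labels, so replicates were numbered in accession order. The study's methods give 2 mice per genotype. Limma p-values combine a gene's spread between these mice (2 residual degrees of freedom) with a spread pooled over all genes (4.02 prior degrees of freedom in the gene fit). The methods' t-test uses the spread between the mice alone. The number of arrays limits the precision.

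Members, lists and tests were chosen with earlier results of these data known. Named were all members, in each pathway list the genes past the threshold or else the 3 with the smallest p, in marker lists up to 3 with the smallest p where a value was needed, the 3 genes closest to Enho, chromosome neighbours, Ehmt2, and, outside this rule and after seeing values, Pdk4, Ghr, Atf4, Ddit3, Nr1d1 and the clock genes. Neighbours are by RefSeq order (GRCm38.p6). 1 listed symbol, Bmal1, was matched as Arntl.

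Alternatives were median centring, quantile normalization, no trend, the methods' t-test, a pseudocount of 50, Present on all 4 arrays, no detection filter, a floor, the mean over probe sets, the series values and leaving out each array.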

Additional observations from a re-analysis of the deposited data

How the results depend on the processing

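Over the 8 tested hepatokine genes, 100 of 111 values under an alternative kept the direction and the side of the threshold. Part of this was fixed in advance. No trend and the methods' t-test change no log2 fold change, and the series values are the same signals. Enho alone had a call to lose, and the 5 values that lost one were all of Enho. The number of members called was 1 for genes and for probe sets, and 0 for both without a mean-variance trend, with the methods' t-test, and with Present on all 4 arrays, where Enho was not tested. For genes it was also 0 without a detection filter and with the mean of detected probe sets. Leaving out 1 array gave 0 to 2 genes and 1 to 2 probe sets. Unadjusted limma p was under 0.05 for 2 of 8 genes with and without the trend.

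Calls over all genes were 33 higher and 7 lower, and 0 and 0 without the trend (645 and 318 at an unadjusted p under 0.05) and with the methods' t-test (449 and 406). They were 19 higher with Present on all 4 arrays, and 11 higher and 4 lower without a detection filter. Leaving out 1 array gave 8 to 54 higher and 0 to 17 lower. The array left alone in its group is then assumed to vary like the other group. Otherwise the cause was not tested.

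Directions turned as follows. Fetub was at -0.12 with median centring and -0.33 to 0.33 when 1 array was left out, Igfbp1 at -0.015 to 1.88, Angptl4 at -0.044 with the mean of detected probe sets, Angptl4 at probe set 1453410_at at -0.63 to 0.10, Apoc2 at -0.40 to 0.048, Fam219a at -0.70 to 0.13 and Igfbp3 at -0.20 to 0.97. Median centring moved the median of all genes from 0.02 to -0.10. No paired analysis was possible because the labels give no replicate number shared between groups.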
